A study of Mus musculus with 25 samples.

Results

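The genes described here make cholesterol, sense it and move it: 19 enzymes of the synthesis pathway, 5 genes of the SREBP2 sensing machinery and 5 genes of cholesterol uptake, transport and storage. These 29 members were picked by name out of the 38087 genes listed in each of 2 tables of poly-A RNA-seq data from mouse leukocytes. Of them, 28 were found by symbol and Msmo1 by its Ensembl identifier, since the tables list it under the older symbol Sc4mol. All mice were male C57BL/6J with no allele named in the labels, adults of 2 to 4 months. In the first table, bone marrow-derived macrophages (BMDM), which are marrow cells of mice aged 8 to 10 weeks grown in macrophage colony-stimulating factor and then replated without it, were left untreated (3 libraries) or given 10 nM resolvin D2 (RvD2) for 4 h (3 libraries). RvD2 is a lipid mediator made from the omega-3 fatty acid docosahexaenoic acid, and the labels name no vehicle for the untreated cells. The second table covers leukocytes sorted from the tibialis anterior muscle after an injection of cardiotoxin, a snake toxin that destroys muscle fibres: Ly6Chigh and Ly6Clow macrophages at day 2 (3 samples each) and day 4 (2 samples each), and neutrophils at day 1 (3 samples). Ly6Chigh cells are the inflammatory macrophages that enter first, and Ly6Clow cells the F4/80-bright macrophages of the repair phase. Each of these 5 groups is 1 column, the authors' mean over its samples, so it carries no error. The labels do not say how many mice went into a sample, nor whether the BMDM replicates were separate cultures, so the p-values below measure the spread between these libraries, which may be technical.

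Cholesterol is built from acetyl-CoA through mevalonate, isoprenoid units, squalene and lanosterol. When sterols in the endoplasmic reticulum run low, Scap escorts the membrane-bound factor SREBP2 (gene Srebf2) to the Golgi, where it is cut, and the released part enters the nucleus and switches on the synthesis genes. When sterols are plentiful, the Insig proteins hold Scap and SREBP2 back, and oxysterols activate the LXR receptors, which drive cholesterol export. Macrophages that eat dead cells take in much cholesterol and so depend on this balance. SREBP2 is known to bind short sterol regulatory elements in promoters beside sites for the factors NF-Y, which reads CCAAT, and SP1, which reads GC boxes.

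The promoters show what the members share in sequence. RefSeq promoters of the build GRCm38.p6 were matched for 24 of the 29 members, and the 250 bases before each start were searched on both strands. The letters TCACNCCAC, a form of the sterol regulatory element, occurred in 1 of the 24, Hmgcs1, 137 to 129 bases before its start, against 1.22% of all 27025 genes in the promoter table. CCAAT occurred in 21 of the 24 (87.5%), against 37.5% of all genes and 40.4% of those that passed the BMDM filter described below. The GC box GGGCGG occurred in 20 of the 24 (83.3%), against 35.4% of all genes and 63.4% of those that passed the filter. A gene was counted where the window before any of its RefSeq starts held a match. By single window, CCAAT occurred in 64.7% of the members' 34 windows, against 33.8% of all 32851. For the GC box these shares were 67.6% and 32.7%. These 3 motifs do not overlap in their letters as matched in Hmgcs1. The match is one of letters only. In the 3 promoters printed here, capitals mark the sterol regulatory element and each CCAAT on either strand (ATTGG on the printed one). Hmgcs1 (chr13:119690101-119690350, plus strand) is shown for its sterol regulatory element, Mvk (chr5:114444019-114444268, plus strand) for its 5 CCAAT matches, and Lss (chr10:76531355-76531604, plus strand) because its RNA fell with RvD2.
Hmgcs1: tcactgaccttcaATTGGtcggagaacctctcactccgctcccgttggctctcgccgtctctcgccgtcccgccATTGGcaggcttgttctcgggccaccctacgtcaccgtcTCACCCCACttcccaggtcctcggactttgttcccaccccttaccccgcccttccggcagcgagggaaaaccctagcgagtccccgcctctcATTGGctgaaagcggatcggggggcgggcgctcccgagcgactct
Mvk: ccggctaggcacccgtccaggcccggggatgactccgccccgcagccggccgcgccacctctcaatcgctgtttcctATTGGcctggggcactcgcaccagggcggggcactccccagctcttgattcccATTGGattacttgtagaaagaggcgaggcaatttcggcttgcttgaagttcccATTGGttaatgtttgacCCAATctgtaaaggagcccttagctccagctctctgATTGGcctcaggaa
Lss: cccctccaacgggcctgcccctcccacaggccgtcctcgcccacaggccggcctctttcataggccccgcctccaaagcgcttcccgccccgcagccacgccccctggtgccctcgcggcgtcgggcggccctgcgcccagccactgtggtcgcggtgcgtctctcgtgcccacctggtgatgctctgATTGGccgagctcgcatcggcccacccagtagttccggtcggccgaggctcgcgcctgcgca
Lss holds 1 CCAAT, 62 to 58 bases before its start. Lrp8, the other member that fell with RvD2, held none of the 3 motifs in the windows before its 3 RefSeq starts.

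The values are log2 of normalised read counts, with anything under 1 listed as 0. Normalised counts summed to 12.4 M to 12.8 M in the BMDM libraries, to 11.9 M to 12.8 M in the 4 macrophage groups and to 26.0 M in the neutrophils. The defining markers matched the sorted cells in part. Ly6g, which marks neutrophils, was listed at 0 in all 4 muscle macrophage groups and at 7.20 in the neutrophils, while Csf1r, the macrophage growth factor receptor, was at 13.86 to 15.16 in the macrophage groups and still at 13.42 in the neutrophils. The 7 neutrophil markers summed to 2213.8 to 2997.8 normalised counts in the macrophage groups and to 343547.4 in the neutrophils. The 7 macrophage markers found summed to 96456.8 to 111719.9 in the macrophage groups and to 301367.6 in the neutrophils. Cd14 (17.74) and Itgam (15.86) stood highest in neutrophils on the log2 scale. Against Ly6Chigh cells at day 2, 2 of these 7 were at least 2-fold higher in neutrophils and 3 lower. The 8 fibroblast markers summed to 24802 normalised counts in Ly6Chigh macrophages at day 4, against 254.6, 82.4 and 1778.7 in the other macrophage groups. The same 8 markers summed to 38716.5 to 60500.5 in the BMDM libraries, about as much as the 7 macrophage markers found (42471.6 to 56581.8), and Col1a1, a fibrillar collagen, stood at 13.95 to 14.53. Their range with RvD2 (38716.5 to 60500.5) enclosed that of the untreated libraries (43219.5 to 50508.1). In such bulk samples, fewer cells of a type and less RNA per cell cannot be told apart.

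In BMDM, most members had lower estimates after 4 h of RvD2, and 2 fell past the threshold. Lrp8, a lipoprotein receptor that also binds reelin and apolipoprotein E, fell to 50.4% of the untreated level, and Lss, the enzyme that closes squalene epoxide into lanosterol, fell to 60.8%. The estimate was below 0 for 25 of the 29 members, against 50.8% of the 15239 genes tested, and the median log2 change of the members was -0.31, against -0.003 over all genes. In 14 members every RvD2 library lay below every untreated library, which was so for 11.7% of all genes, and in 0 members was the reverse true, against 9.29% of all genes. The test was limma's moderated test over all genes with a mean of at least 10 normalised counts, two-sided, with Benjamini-Hochberg adjustment over all of them and 0.05 as threshold, and all 29 members passed that filter. It called 2 of 29 members lower against 1.06% of all genes, and 0 higher against 0.794%. At an unadjusted p under 0.05, 15 members were lower, against 8.41% of all genes. At that cutoff 0 members were higher, and the share of all genes higher was not counted. Without both replicate 3 libraries, a setting chosen after seeing the data, 25 estimates were below 0 and 16 members did not overlap, against 21.8% of all genes. In that smaller fit Lrp8 kept its call and Lss did not pass (adjusted p = 0.139), with a log2 change of -0.73 for Lss against -0.72 with all libraries.

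**Figure D1:**
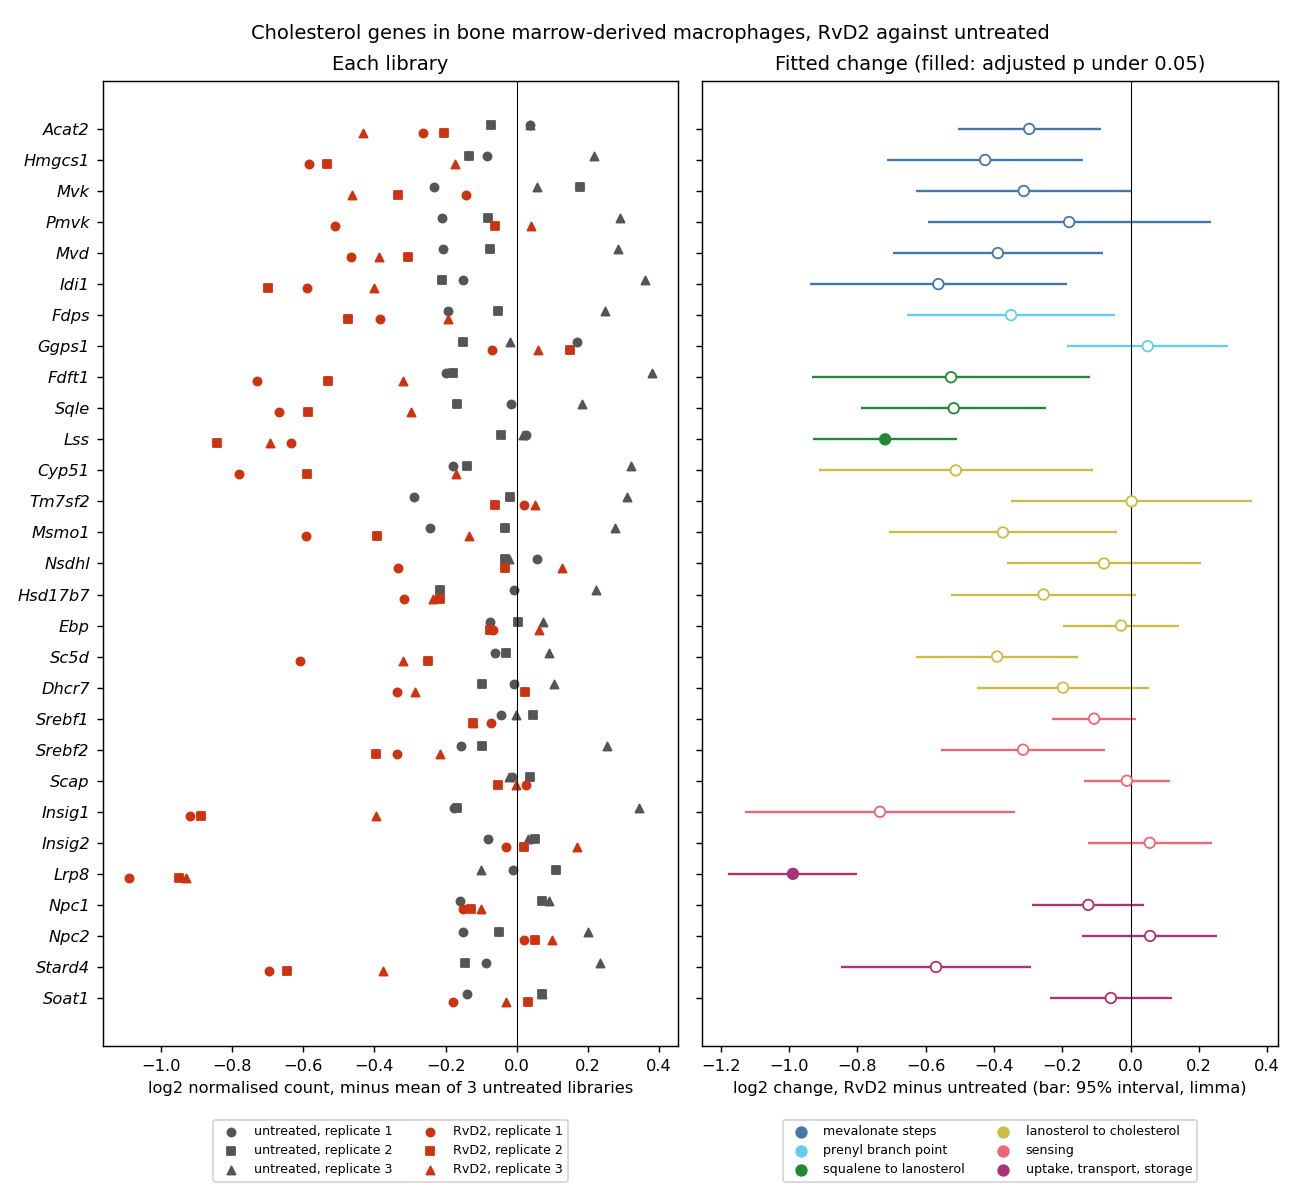
Left: log2 normalised count of each member in each BMDM library, minus the mean of the 3 untreated libraries, with symbols for the replicate number. Right: fitted log2 change, RvD2 minus untreated, with limma's 95% interval, filled where the adjusted p was under 0.05. Most members lie left of 0, Lrp8 and Lss are the filled points, and replicate 3 is often the highest library of its group.

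Lrp8 (ENSMUSG00000028613, chr4:107802261-107876840 on GRCm38, GENCODE M21) stood at 8.90, 9.02 and 8.81 on the log2 scale in the untreated libraries and at 7.82, 7.96 and 7.98 with RvD2. The groups lay far apart compared with their own spread (SD 0.11 and 0.09, n = 3 each). The log2 change was -0.99 with a standard error of 0.08 and a 95% interval of -1.18 to -0.80, and limma's adjusted p was 0.00279, the 6th smallest p of all genes tested. Lss (ENSMUSG00000033105, chr10:76531588-76557138) stood at 7.72, 7.65 and 7.71 untreated and at 7.06, 6.85 and 7.0 with RvD2, again without overlap. Its log2 change was -0.72 with a standard error of 0.09, and the adjusted p from limma was 0.00853. Leaving out any single library kept both calls. The antisense gene 4930483K19Rik shares 381 exon bases with Lss, but it stood between 0.44 and 2.77 in the BMDM libraries, far below Lss.

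The mevalonate steps, from acetyl-CoA to the isoprenoid unit, had 6 of 6 estimates below 0 and none past the threshold. Hmgcs1, which makes HMG-CoA, stood at 9.78, 9.73 and 10.08 untreated and at 9.28, 9.33 and 9.69 with RvD2 (log2 change -0.43, adjusted p = 0.145 by limma). Its highest RvD2 library lay just under its lowest untreated one. Idi1, the isomerase that yields the reactive isoprenoid, stood at 6.97, 6.91 and 7.48 untreated and at 6.53, 6.42 and 6.72 with RvD2, again without overlap (log2 change -0.56, limma's adjusted p = 0.142). Acat2, the thiolase of the first step, and Mvd, the decarboxylase, also separated (log2 changes -0.30 and -0.39), whereas the kinases Mvk and Pmvk overlapped (-0.31 and -0.18). Summed over the 6 genes, the mevalonate steps held 1570, 1579 and 1951 normalised counts in the untreated libraries and 1208, 1258 and 1422 with RvD2, so that the lowest untreated sum was above the highest treated one. At the prenyl branch point, where isoprenoids leave for protein prenylation, Fdps had a log2 change of -0.35, with its nearest untreated and treated libraries both at 7.15, and Ggps1, which makes the longer prenyl donor, one of 0.05 with overlap.

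The squalene-to-lanosterol steps had the lowest median of the 6 role groups, -0.53. All 3 enzymes separated fully, against 11.7% of all genes that were lower without overlap. Besides Lss, Sqle, the oxygen-using squalene epoxidase that is a slow step of the pathway, stood at 9.02, 8.87 and 9.22 untreated and at 8.37, 8.45 and 8.74 with RvD2. Every treated library was lower, by an estimated 30.2% (log2 change -0.52, adjusted p = 0.0714 by limma). Fdft1, squalene synthase, had a log2 change of -0.53 (adjusted p = 0.197). It shares 774 exon bases with Ctsb on the opposite strand, a cathepsin at 17.17 to 17.43 in these libraries, and since the kit as described marks no strand, its value is uncertain. The change of Ctsb itself was 0.005 on the log2 scale. The sum over the 3 enzymes was 849, 789 and 985 normalised counts untreated and 547, 560 and 665 with RvD2.

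From lanosterol to cholesterol the members were more mixed: 7 of 8 estimates were below 0 and none passed. Only Sc5d, a desaturase late in the pathway, had no overlap between groups. That is 12.5% of these enzymes, near the 11.7% of all genes that were lower without overlap. Sc5d stood at 8.35, 8.38 and 8.50 untreated and at 7.80, 8.16 and 8.09 with RvD2 (log2 change -0.39, limma's adjusted p = 0.110). Cyp51, the lanosterol demethylase, and Msmo1, the sterol methyl oxidase, had log2 changes of -0.51 and -0.37 with overlapping libraries. Ebp, the sterol isomerase, and Tm7sf2, a sterol reductase, stood nearly level at -0.03 and 0.003, with 95% intervals of -0.20 to 0.14 and -0.35 to 0.36. Part of the spread was shared within replicate number 3: untreated 3 and RvD2 3 were each the highest library of their group in 15 of the 29 members, against 15.6% of all genes. Neutrophil markers were also highest in those libraries (7775 and 5072 summed normalised counts, against 2542.2 to 3852.5 in the other 4), and their part in the result was not tested.

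In the sensing machinery, 4 of 5 estimates were below 0 and none passed. Insig1, a retention protein whose gene is itself an SREBP target, stood at 9.02, 9.03 and 9.54 untreated and at 8.28, 8.31 and 8.80 with RvD2. The groups did not overlap, and the log2 change of -0.73 was the largest among members that did not pass (adjusted p = 0.0783 by limma). Srebf2 stood at 10.36, 10.42 and 10.77 untreated and at 10.18, 10.12 and 10.30 with RvD2 (log2 change -0.32, limma's adjusted p = 0.188). Scap and Insig2 showed little difference, at -0.01 (95% interval -0.14 to 0.11) and 0.06 (-0.13 to 0.24). Srebf1, which encodes the fatty acid-directed relative of SREBP2, was slightly lower in every RvD2 library (10.02, 9.97 and 9.97 against 10.05, 10.14 and 10.09), a log2 change of -0.11.

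Of the transport genes, Stard4, a soluble carrier of sterol between membranes, came closest to the threshold after Lrp8. It stood at 8.43, 8.37 and 8.75 untreated and at 7.82, 7.87 and 8.14 with RvD2 (log2 change -0.57, limma's adjusted p = 0.0580). With genes of a mean of at least 50 normalised counts only, it passed (adjusted p = 0.0447). The lysosomal export proteins Npc1 and Npc2 and the esterifying enzyme Soat1 lay between -0.12 and 0.06 and overlapped. Per kilobase of transcript, these genes stood above the enzymes: Npc2 at 3125, Npc1 at 1055 and Soat1 at 509.3 normalised counts per kb in untreated BMDM, against 338.3 for Msmo1, the highest enzyme, and 37.1 for Fdft1, the lowest.

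Among the 4 macrophage groups of muscle, Ly6Chigh cells at day 2, the early inflammatory cells, held the highest value for 13 of the 19 synthesis enzymes and for 17 of the 29 members. With the neutrophils included, Ly6Chigh cells at day 2 were highest for 9 of the 19 enzymes and neutrophils for 6. How often each group was highest over all genes was not counted, so these counts have no background beside them. The 19 enzymes summed to 5082 normalised counts in Ly6Chigh and 3820 in Ly6Clow cells at day 2. At day 4 they summed to 3554 in Ly6Chigh and 3523 in Ly6Clow cells. In neutrophils, whose column has the larger total, they summed to 5678. Both day 4 groups thus stood close together, and the ratio to Ly6Chigh cells at day 2 was smallest for the squalene-to-lanosterol steps, with 582 there against 229 and 233. Sqle made up the largest part of this difference, with 366 there against 95.6 in Ly6Chigh and 77.3 in Ly6Clow cells at day 4. Fdft1 stood at 156 against 84.3 and 82.4, and Lss at 59.8 against 49.1 and 72.9, so Lss was not lower in both. With 1 value a group no test is possible, so members are described by the log2 ratio of normalised counts plus 10, and counted where this reached 2-fold with the higher group at 50 or more.

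**Figure D2:**
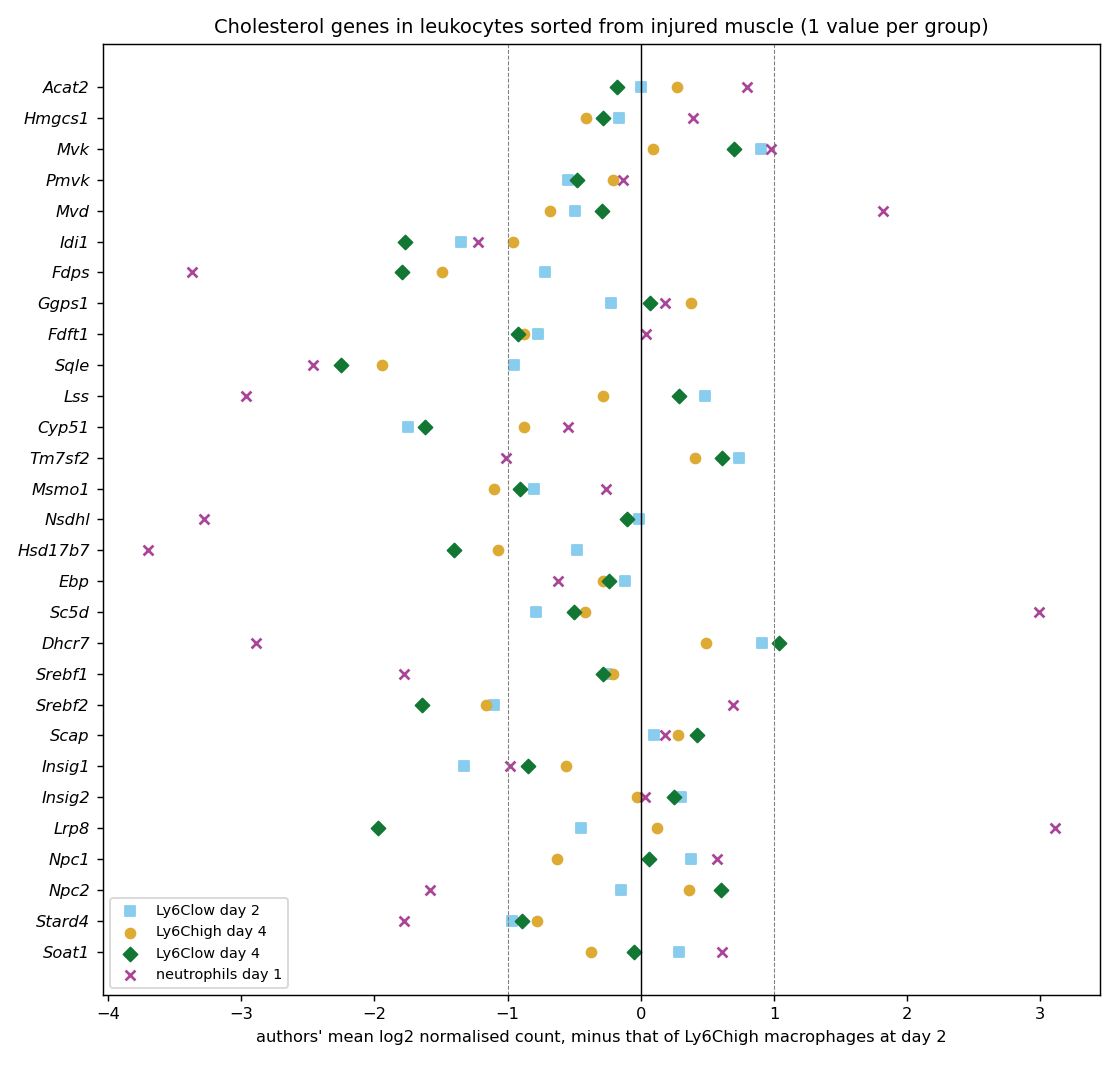
Each member's authors' mean log2 normalised count in 4 groups minus that in Ly6Chigh macrophages at day 2 (line at 0), with dashed lines at 2-fold and 1 symbol per group. Sqle, Fdps, Idi1, Srebf2 and Lrp8 lie farthest left for Ly6Clow cells at day 4, and the neutrophils spread widest on both sides.

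At day 2, 4 of 29 members were at least 2-fold lower in Ly6Clow than in Ly6Chigh macrophages, against 5.46% of all genes, and 0 were higher, against 5.90%. The 4 were Cyp51, Insig1, Idi1 and Srebf2. Cyp51 stood at 9.57 in Ly6Chigh and 7.82 in Ly6Clow cells on the log2 scale, a log2 ratio of -1.71. Insig1 stood at 10.34 against 9.01, Idi1 at 7.35 against 6.00, and Srebf2 at 11.43 against 10.33. Idi1 did not reach 2-fold with 50 added to each count (-0.90). The deposited values could also split its reads with the near-identical processed pseudogenes Gm13502 and Gm35570. Gm13502 stood at 5.87 in Ly6Chigh and 4.53 in Ly6Clow cells. The 4 lower members thus held 1 of the Insig genes and the factor itself, while Scap (log2 ratio 0.09) and Insig2 (0.29) were not lower. Mvk and Dhcr7, the reductase of the last step, went the other way without reaching 2-fold (log2 ratios of 0.84 and 0.87). In this day 2 comparison 3 of 3 fibroblast and 2 of 3 endothelial markers that could be called were at least 2-fold lower in Ly6Clow cells. Of such macrophage markers 1 of 7, of neutrophil markers 1 of 5 and of proliferation genes 7 of 7 were at least 2-fold higher. The part of these genes in the result was not tested. At day 4 the 2 subsets differed in 1 of the 28 members that could be called, Lrp8, which stood at 7.88 in Ly6Chigh and 5.79 in Ly6Clow cells, against 4.22% of all genes at least 2-fold lower, and 0 members were higher, against 2.98%. Markers of other cells moved with this comparison: fibroblast markers summed to 24802 in Ly6Chigh and 1778.7 in Ly6Clow cells, T and NK cell markers to 754.8 and 33.2, and dendritic cell markers to 1585.7 and 77.7, and their part in it was not tested. The median log2 ratio of the members was -0.25 at day 2 and -0.02 at day 4. Whether these differ could not be tested.

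Between day 2 and day 4, Ly6Chigh macrophages had 4 members at least 2-fold lower, against 3.74% of all genes, and 0 higher, against 9.67%. Sqle showed the largest difference, from 8.52 to 6.58 (log2 ratio -1.83), followed by Fdps, the farnesyl diphosphate synthase, from 7.99 to 6.50, Srebf2 from 11.43 to 10.27, and Msmo1 from 8.99 to 7.89. Msmo1 stood at -1.07 and came to just under 2-fold when column totals were made equal or 50 was added to each count. Fdps has 4 processed pseudogenes and 1 overlapping gene of near-identical sequence, and the deposited values could split its reads among them. Of those pseudogenes, 3 have values here and were lower as well, with Gm3571 going from 7.68 to 6.16. The fibroblast markers that summed to 24802 in the day 4 cells, and T and NK cell markers (754.8 against 30.5) and dendritic cell markers (1585.7 against 106.5), moved with this comparison, and their part in it was not tested. In Ly6Clow macrophages, where the fibroblast sum was 82.4 at day 2 and 1778.7 at day 4, 2 members were at least 2-fold lower at day 4, against 3.24% of all genes, and 0 higher, against 8.08%. These were Sqle, from 7.57 to 6.27, and Lrp8, from 7.31 to 5.79. Neither reached 2-fold with 50 instead of 10 added to each count (-0.92 and -0.99).

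Set end to end, Ly6Clow cells at day 4 had 7 members at least 2-fold lower than Ly6Chigh cells at day 2, against 6.66% of all genes, and 1 higher, against 12.6%. Sqle was lowest at a log2 ratio of -2.11, then Lrp8 at -1.80, Fdps at -1.67, Srebf2 at -1.63, Cyp51 at -1.59, Idi1 at -1.58 and Hsd17b7, the ketosteroid reductase, at -1.14. With 50 added to each count, Hsd17b7 (-0.67) no longer reached 2-fold. Sqle, Fdps, Srebf2 and Hsd17b7 shared 1 order over the 4 groups, from Ly6Chigh day 2 through Ly6Clow day 2 and Ly6Chigh day 4 to Ly6Clow day 4. Dhcr7 was the member above, at 8.42 against 7.38, at the edge of 2-fold, and it did not reach 2-fold with 50 added to each count (0.86). In the same comparison 4 of 4 skeletal muscle markers that could be called (list sums of 250.5 in Ly6Chigh cells at day 2 and 1085.8 in Ly6Clow cells at day 4) and 5 of 5 such fibroblast markers (254.6 and 1778.7) were at least 2-fold higher. Of the neutrophil markers that could be called, 3 of 4 were at least 2-fold lower, with list sums of 2213.8 and 2635.7, and the part of these markers in the result was not tested. Some enzymes hardly varied: Nsdhl, the sterol dehydrogenase, kept within 0.10 and Ebp within 0.28 over the 4 macrophage groups on the log2 scale. The transport genes made up most of the members' summed RNA and had no common direction, with Npc2 at 14.07, 13.92, 14.43 and 14.67 in that group order of Ly6Chigh day 2, Ly6Clow day 2, Ly6Chigh day 4 and Ly6Clow day 4.

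**Figure D3:**
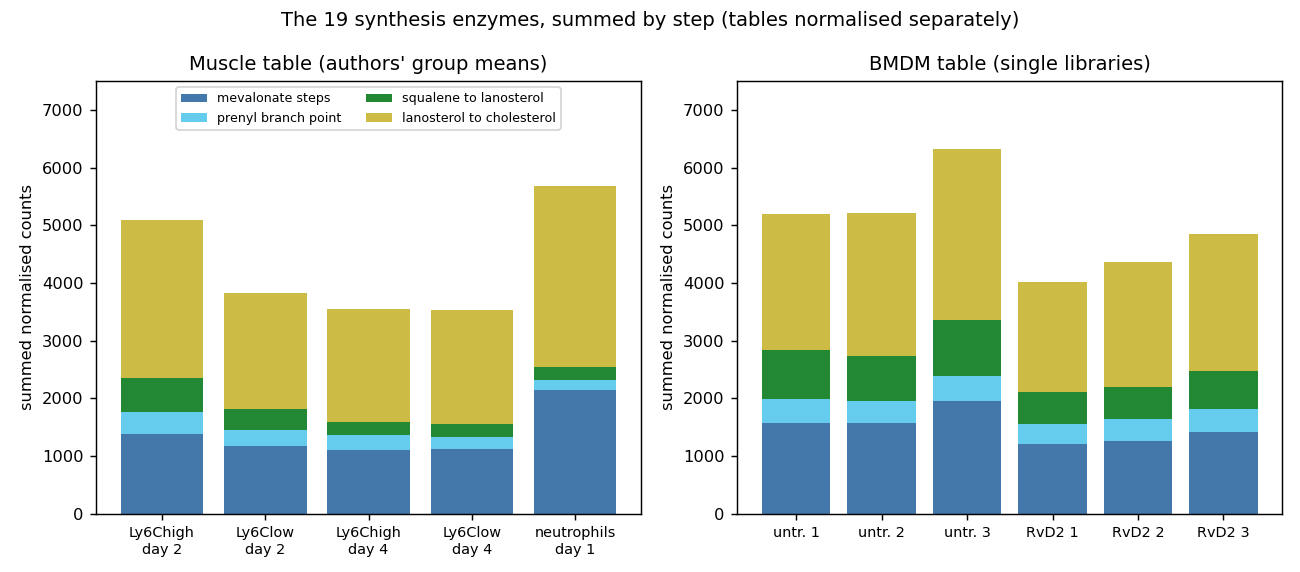
Summed normalised counts of the 19 synthesis enzymes, stacked by pathway step, in the 5 muscle groups (left, taken back from the authors' log2 means) and the 6 BMDM libraries (right), on axes from 0. Ly6Chigh macrophages at day 2 (5082) stand above the other macrophage groups (3523 to 3820), and the RvD2 libraries (4011 to 4842) below the untreated ones (5200 to 6317). The 2 tables were normalised separately, so heights compare only within a panel.

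In neutrophils at day 1, single genes of the pathway stood far above and far below the macrophages, as did a large share of all genes. Against Ly6Chigh macrophages at day 2, 3 of 29 members were at least 2-fold higher, against 30.9% of all genes, and 10 at least 2-fold lower, against 27.6%. Lrp8 stood at 10.87 against 7.76 (log2 ratio 3.05), Sc5d at 10.65 against 7.66 (2.92) and Mvd at 9.50 against 7.68 (1.77). Hsd17b7 (2.52 against 6.22), Lss (2.94 against 5.90), Nsdhl (4.21 against 7.49), Dhcr7 (4.49 against 7.38) and Fdps (4.62 against 7.99) were the lowest in neutrophils. Sqle (6.06 against 8.52), Stard4 (6.10 against 7.88), Idi1 (6.13 against 7.35), Srebf1 (8.59 against 10.37) and Npc2 (12.49 against 14.07) were also at least 2-fold lower. With 50 added to each count, Lss (-0.93) and Idi1 (-0.83) did not reach 2-fold lower. The pathway from squalene on thus had members below 8 normalised counts beside Sc5d at 1602. As deposited, Srebf2 was at its highest of the 5 groups in neutrophils, 12.12, and Srebf1 at its lowest, 8.59. Because the neutrophil column sums to 26.0 M against 12.5 M, scaling matters: the median log2 ratio of all genes was 0.15 as deposited and -0.99 with equal totals. With equal totals Lrp8 (2.03) and Sc5d stayed past 2-fold higher, Mvd did not (0.74), Srebf2 went from above to below the Ly6Chigh cells (log2 ratio 0.69 as deposited and -0.36), and Pmvk, Cyp51, Tm7sf2, Msmo1, Ebp and Insig1 joined those at least 2-fold lower.

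The muscle and BMDM comparisons share no samples, so the members' values can be set side by side. From Ly6Chigh day 2 to Ly6Clow day 4 and from untreated to RvD2, 20 of 29 members (69.0%) were below 0 in both, against 28.9% of the 11502 genes measured in both. Another 5 members (Mvk, Lss, Dhcr7, Scap and Npc1) were below 0 with RvD2 only, and the 4 above 0 with RvD2 (Ggps1, Tm7sf2, Insig2 and Npc2) were above 0 in muscle too. Of the members that passed with RvD2, Lrp8 was lower in both, whereas Lss was lower with RvD2 and slightly higher in Ly6Clow cells at day 4 (log2 ratio 0.25). Taken singly, 25 of the 29 members were below 0 with RvD2 and 20 in muscle, so much of the overlap follows from those 2 counts alone. The members are not independent of each other, and the RvD2 values carry a test while the muscle ratios do not.

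**Figure D4:**
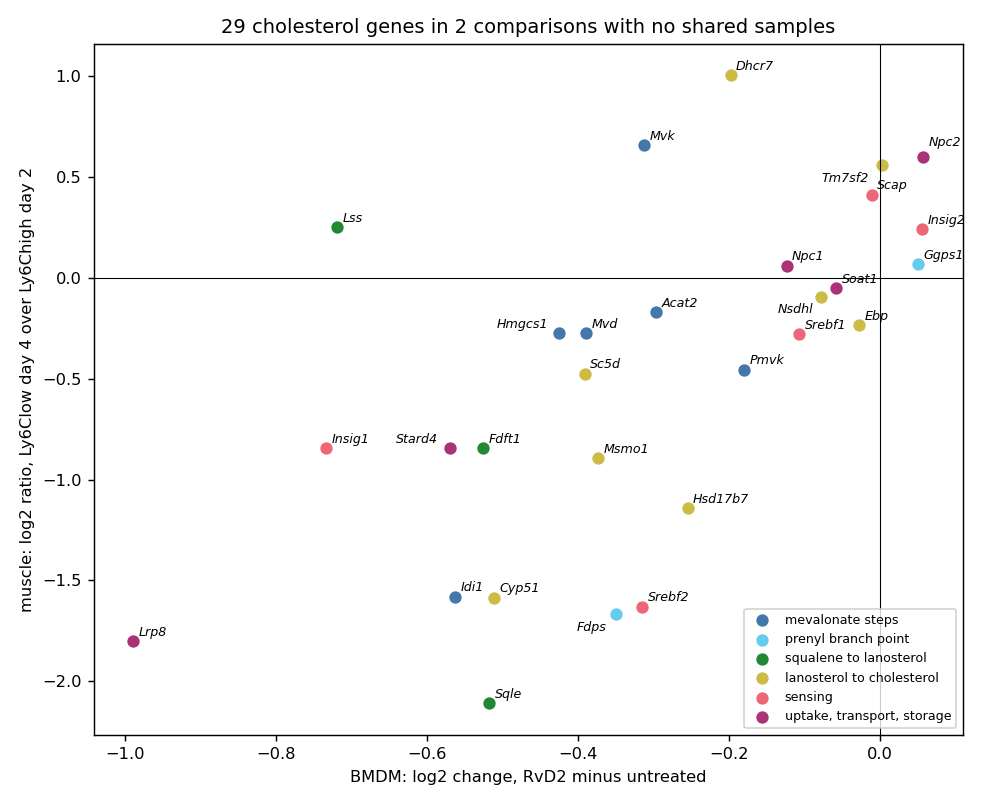
Each point is 1 of the 29 members, with its log2 change in BMDM (RvD2 minus untreated) on the x axis and its log2 ratio in muscle (Ly6Clow day 4 over Ly6Chigh day 2) on the y axis, coloured by role. At lower left lie 20 members, among them Lrp8 and Sqle, and Lss lies above the horizontal line.

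Genes of neighbouring pathways were counted in the same way. With RvD2, 0 of 22 other sterol and isoprenoid genes, 0 of 12 fatty acid synthesis genes and 0 of 9 tested LXR and efflux genes passed limma's threshold, with median log2 changes of -0.02, -0.18 and 0.11. At an unadjusted p under 0.05 the same lists had 3, 5 and 0 genes lower, against 8.41% of all genes, and 1, 0 and 2 higher. Of 8 proliferation genes 4 fell with RvD2, Ccnb1, a mitotic cyclin, by the most (log2 change -0.85, limma's adjusted p = 0.00803). In muscle, from Ly6Chigh day 2 to Ly6Clow day 4, 5 of 9 LXR and efflux genes were at least 2-fold higher and 0 lower, against 12.6% and 6.66% of all genes. Of the 19 synthesis enzymes, 1 was at least 2-fold higher and 5 lower. The median log2 ratio was 1.80 for the LXR and efflux genes and -0.275 for the enzymes. Pltp, a phospholipid transfer protein, stood at 14.60 against 10.52, Apoe, the main lipid carrier that macrophages secrete, at 18.80 against 15.95, and Abcg1, a sterol exporter, at 12.48 against 10.52. In the same comparison 4 of 21 other sterol and isoprenoid genes were at least 2-fold higher and 1 lower, against 12.6% and 6.66% of all genes. Their median log2 ratio was 0.11. Among them Cyp27a1, which makes an oxysterol, was higher (10.48 against 7.96). Por, the electron donor that Cyp51 and Sqle need, was lower (11.64 against 13.46). Of the glycolysis and hypoxia genes 7 of 8 were at least 2-fold lower, and of the proliferation genes 8 of 8 at least 2-fold higher; 2 of the 8 glycolysis and hypoxia genes rose with RvD2.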

How the data were processed

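Libraries were made from poly-A RNA with a TruSeq kit and sequenced on a HiSeq instrument, per the labels' protocols. TopHat2 2.0.7, DESeq and the build mm10 were used, per the submitters' processing notes, with no roles or parameters. No source used here gives the gene annotation. Both deposited tables hold log2 values of counts that the authors normalised, with values under 1 listed as 0, and each muscle column is the authors' mean of log2 values over a group. Counts given for muscle groups were taken back from these log2 means, so they are geometric means over samples. Muscle sums and column totals add such values. The BMDM values were read as log2 and not as counts, so limma took the place of a count test. Whole reads could not be recovered: 40.4 to 53.2% of low values lay within 0.02 of a whole multiple. The members and lists were chosen with earlier results of these data known.

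BMDM libraries were compared with limma 3.58.1 (R 4.3.3) with a mean-variance trend, on the 15239 genes with a mean of at least 10 normalised counts. The script was tested on simulated data. Muscle ratios used a pseudocount of 10, a level of at least 50 in the higher group and 2-fold. Levels per kb used GENCODE M21 principal transcripts, and near-copies were transcripts of at least 95% identity over 400 bases. All 29 members are accounted for, with values printed for those called in any comparison, for each context list by counts and up to 3 called genes, and otherwise by range; Hmgcs1, Sc5d, Mvk, Stard4, Ebp, Nsdhl, Cyp27a1, Por and other members below the threshold were named after their values were seen. The replicate numbers were not taken as pairs. Alternatives covered filters, pseudocounts, scaling, the replicate block and leaving out each library. Ly6Chigh macrophages at day 1 and blood monocytes (6 samples) are not analysed here, and 2 muscle values that hold a date were treated as missing.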

Additional observations from a re-analysis of the deposited data

How the results depend on the processing

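Leaving out each BMDM library in turn gave 79 to 288 called genes in place of 283, and 47 to 150 lower in place of 162: 122 genes without untreated 1, 106 without untreated 2, 140 without untreated 3, 89 without RvD2 2 and 79 without RvD2 3. Lrp8 and Lss kept their calls in each. Without both replicate 3 libraries, added after seeing the data, limma called 1 member (Lrp8), 10 genes and 3 lower. Calls over all genes came to 137 without the filter (84 lower) and 49 without the variance trend (27 lower). With the replicate number as a block, limma called 12 members, 1066 genes and 574 lower, the members being Lrp8, Lss, Hmgcs1, Idi1, Fdft1, Sqle, Cyp51, Msmo1, Sc5d, Srebf2, Insig1 and Stard4. Same-numbered libraries correlated at 0.29, 0.024 and 0.052 in their deviations from the group means, and untreated 2 correlated best with RvD2 3 (0.185), so the numbers are not known to pair the libraries. At 1.5-fold, 13 members were counted for the subsets at day 2 and 4 at day 4, 11 for Ly6Chigh and 5 for Ly6Clow cells between days, 14 end to end and 20 for neutrophils. The share of all genes past 1.5-fold was not counted, so these numbers have no background beside them. With 50 as pseudocount, 0 members were counted for Ly6Clow cells between days. No member changed sign past a threshold. A count test on recovered reads was not run, and leaving out muscle samples was not possible with 1 column per group. Depth in reads is unknown.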
